A study of Mus musculus with 52 samples.

Results

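Bone marrow of normal adult mice was set against a reference RNA that the submitters ran on the same bead array platform. The members were the 9 arrays of NeuT- mice aged 12 weeks and the 5 arrays titled Ref 1 to Ref 5, chosen by their titles, 14 of the 52 arrays of the series. The marrow mice were BALB/c females without the MMTV-NeuT transgene, siblings of mice in which the mammary tumor virus promoter drives an activated rat Erbb2 oncogene. Each marrow array held RNA of a separate animal, taken from bone marrow as a whole, and the labels give no sort of the cells. The Ref arrays carry the label BALB/c, female, with no age and the running name M_Ref, and their source is labelled as bone marrow tissue like that of the mice. Whether the 5 arrays hold separate RNAs or repeat hybridisations of the same RNA is not stated in the sources used here. The remaining 38 mice of the series, NeuT+ or NeuT- at 6, 12 or 24 weeks, served to set the reference beside other marrow. The study design names the Illumina TotalPrep amplification kit and the label protocol names the whole genome DASL assay, for both groups alike, so the labelling method is uncertain.

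Bone marrow makes blood cells from stem cells. Its bulk is granulocytes and their precursors, which load bactericidal proteins into granules in order of maturation, and erythroblasts, which fill with haemoglobin. Developing B cells, monocytes, macrophages, megakaryocytes and a thin stroma of fibroblasts, endothelium, fat and bone-lining cells make up most of the rest. Pigment, keratin filaments and fibrillar collagen are products of melanocytes, epithelia and fibroblasts, which are not blood cells.

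In all, 45281 probes were read on each array. A probe counted as detected at a detection p-value under 0.01, and 15252 to 16232 probes were detected on the marrow arrays against 15884 to 17057 on the reference arrays. Levels are given throughout as normalized log2 intensities, differences as marrow minus reference in log2 units, and a gene as called at a limma adjusted p under 0.05 with the 5 reference arrays averaged to enter as 1 sample. Each p therefore says whether the reference mean lies outside the spread between the 9 mice. Over all genes the 9 mice correlated at 0.978 to 0.994 with each other, the 5 reference arrays at 0.996 to 0.997, and mice with reference arrays at 0.665 to 0.683. No pair of arrays held identical values.

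The labels were checked before any comparison. Xist, the RNA that coats the inactive X chromosome of female cells, was detected by all 4 of its probes in 8 of the 9 marrow mice and on 0 of the 5 reference arrays. Marrow mouse 9 also had no detected Xist signal, with raw intensities of 119.7, 114.9, 140.8 and 155.4 on its 4 probes, where the other 8 mice had at least 643.9, 700.1, 295.4 and 427.8. Among all 47 mice of the series 46 had Xist. The Y-linked genes Eif2s3y and Kdm5d were detected on 0 of the 47 mouse arrays and 0 of the 5 reference arrays. A probe of Uty, 1 of 4, was detected in 4 of the 47 mice, marrow mouse 9 not among them. The Xist level was 4.72 in marrow mouse 9, 9.36 to 12.31 in the other 8 marrow mice and 4.69 to 4.85 on the reference arrays, where it was not detected. The gene was at least 19.4-fold higher over the 9 mice than in the reference (limma adjusted p = 0.032 with mouse 9 and 0.00011 without it). Its signal was detected in marrow alone, which fixes the direction, so these p-values carry no test of it. Marrow mouse 9 and the reference thus carry the label female without a detected Xist signal and without a detected Eif2s3y or Kdm5d signal. Marrow mouse 2, although non-transgenic, has a tumor grade label of mild/moderate dys, where the other 8 read normal.

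The source label of the reference was set against the defining genes of marrow. Of the genes tested, 7 of 8 primary granule, 14 of 19 neutrophil, 13 of 17 erythroid and 9 of 10 megakaryocyte genes were undetected on all 5 reference arrays. Among all 10956 genes tested the count was 1108 (10.1%). Many of these genes passed the filter on low values through marrow, so their counts carry no test. Detected on all 5 reference arrays were 10 of 14 tested pan-leukocyte genes and 7 of 11 tested stem and progenitor genes. The same held for 8918 of all 10956 genes tested, a larger share than on either list. Most of the listed granule, red cell and platelet genes of the labelled tissue were thus not detected on the Ref arrays, which are called reference RNA here. On all 9 marrow arrays 7 of 8 primary granule and 19 of 19 neutrophil genes that passed the filter were detected. So were 17 of 17 erythroid and 8 of 10 megakaryocyte genes, and 8132 of all 10956 genes tested. Many of the listed genes passed the filter through marrow, so these counts carry no test either.

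**Figure D1:**
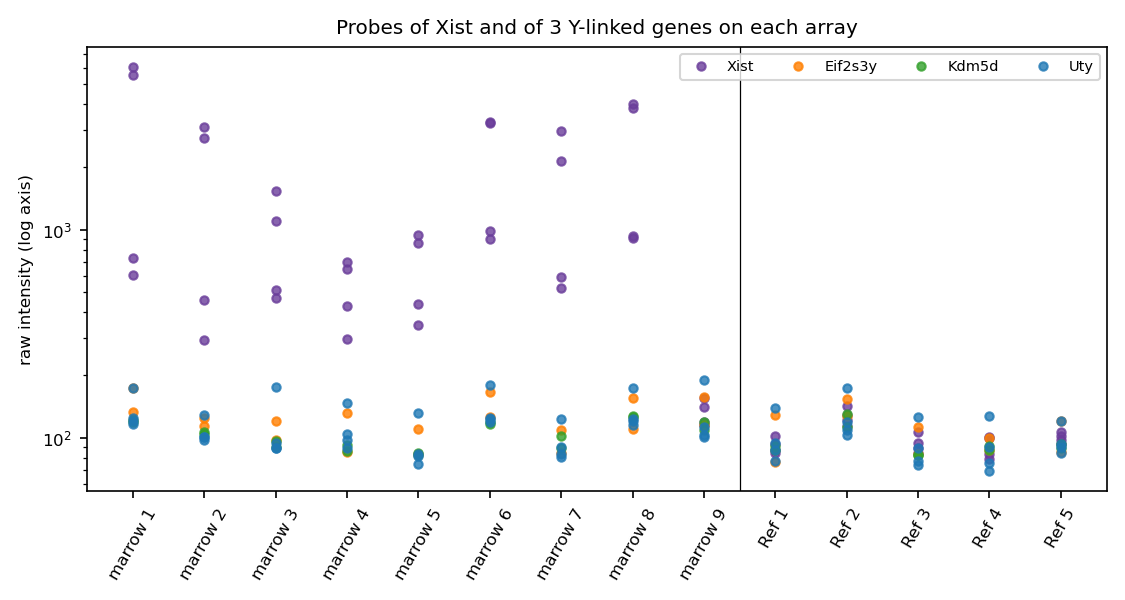
Raw intensity (log axis) of the 4 probes of Xist and of the 8 probes of the Y-linked genes Eif2s3y, Kdm5d and Uty on each of the 9 marrow and 5 reference arrays, 1 point per probe. Xist stands above the other probes in marrow mice 1 to 8 and lies among them in marrow mouse 9 and on all 5 reference arrays.

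Of 10956 genes tested, 2730 (24.9%) were higher and 3718 (33.9%) lower in marrow than in the reference, 58.9% in either direction. A difference above 2-fold as well was reached by 1919 genes (17.5%) that were higher and 2511 genes (22.9%) that were lower. Without marrow mouse 9 the counts were 2715 higher and 3710 lower, and without marrow mouse 2 they were 2746 and 3762. The median difference over all genes was -0.12. Every marrow array lay above every reference array for 3058 genes (27.9%) and below for 4087 genes (37.3%). With so large a share of all genes called, a count of called members in a gene list is given below as a description of the list and has no test of its own. Of 169 tested genes on 18 lists of blood cells 144 were higher and 9 lower in marrow, and of 82 on 21 lists of other tissues 12 were higher and 48 lower. Genes named outside the fixed naming rule were chosen after their values were seen.

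The detection calls divided the tested genes into classes. On all 14 arrays 7305 genes (66.7%) were detected, and 1706 of them were higher and 2076 lower in marrow. On all 9 marrow arrays and 0 of 5 reference arrays 589 genes (5.38%) were detected, and on 0 of 9 marrow arrays and all 5 reference arrays 1011 genes (9.23%). A gene detected in 1 group alone had passed the filter through that group. Its difference is therefore fixed in direction, and its call carries no test of direction. Its fold is given only as a lower bound. The bound is set against each dim array's faintest detected signal, or the probe's own signal where that is higher. Each bound or difference is that of the probe that stands for its gene, and other probes of some genes gave smaller or opposite differences. List medians below hold such genes at their bounds on the log2 scale, or at 0 where no bound above 1 could be set, and the directions of these members were fixed by the filter. These bounds had a median of 5.93 and passed 100-fold for 44 genes of the marrow class, against a median of 3.46 and 9 genes past 100-fold in the reference class. The marrow class was thus smaller, with a larger median bound.

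**Figure D2:**
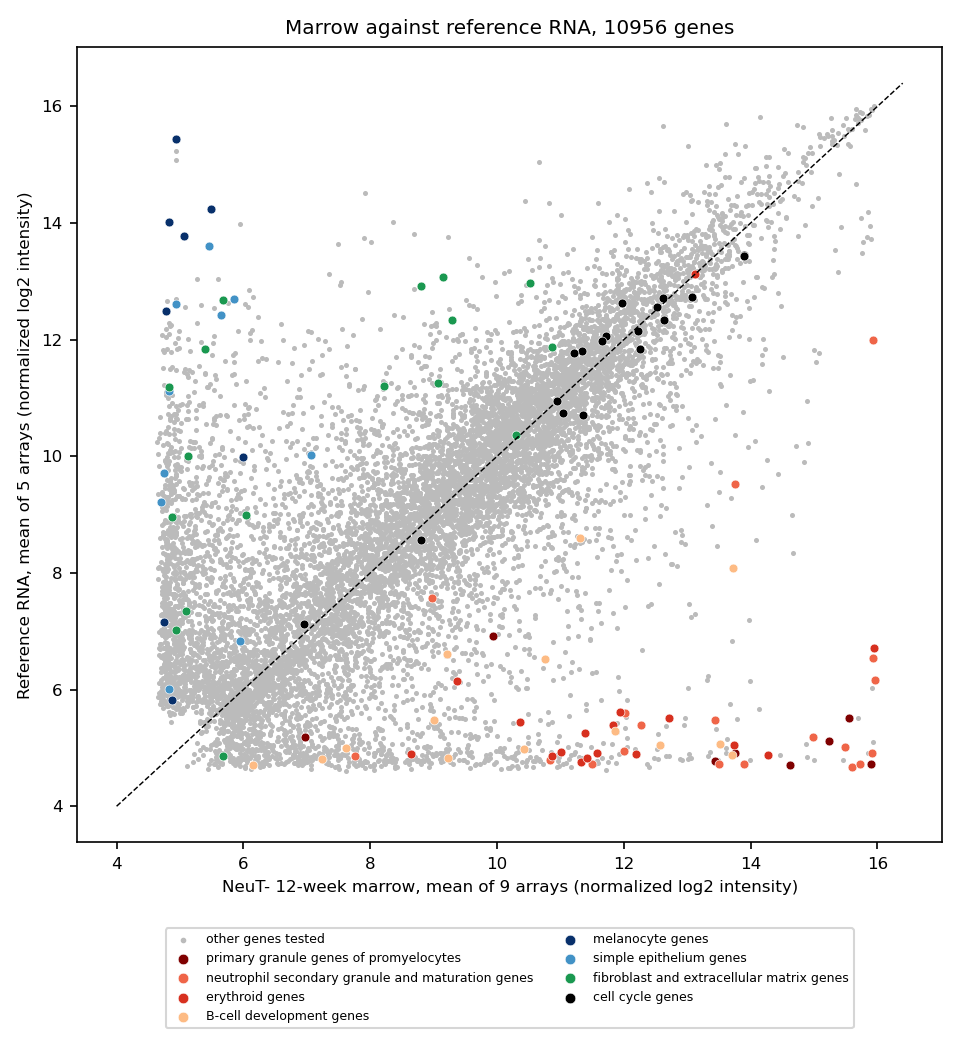
Mean normalized log2 intensity of 10956 genes in NeuT- 12-week marrow (9 arrays, horizontal axis) and in the reference RNA (5 arrays, vertical axis), with 7 marker lists and the cell cycle genes in colour and a dashed line of equal levels. Granule, erythroid and B-cell genes lie along the lower right, melanocyte and simple epithelium genes along the upper left, and cell cycle genes near the line.

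The largest bounds on either side were held by genes of blood cell granules and haemoglobin in marrow and by pigment cell and epithelial genes in the reference. Promoters are shown for 4 genes with bounds above 100-fold (Dct, Tyrp1, S100a9 and Ngp) and for the alpha globin gene Hba-a1, which was detected on all 14 arrays. The sequences are from RefSeq (mouse build GRCm38.p6), 5′ to 3′ on the gene's strand, from 250 bases before to 50 bases after the annotated start. Capitals mark matches, on either strand, to CATGTG (an E-box bound by MITF, the melanocyte regulator) in the melanocyte genes, to TTGCNNAA (bound by C/EBP factors of granulocytes) in the granulocyte genes and to GATAAG (bound by GATA factors of erythroid cells) in the globin gene.
Dct, chr14:118052197-118052496, minus strand: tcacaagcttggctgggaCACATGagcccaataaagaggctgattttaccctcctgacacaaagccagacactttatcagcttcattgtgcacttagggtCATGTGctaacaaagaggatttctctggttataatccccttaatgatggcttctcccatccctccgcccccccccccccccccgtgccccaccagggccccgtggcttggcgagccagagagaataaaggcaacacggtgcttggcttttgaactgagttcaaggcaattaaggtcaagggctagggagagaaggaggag
Tyrp1, chr4:80833963-80834262, plus strand: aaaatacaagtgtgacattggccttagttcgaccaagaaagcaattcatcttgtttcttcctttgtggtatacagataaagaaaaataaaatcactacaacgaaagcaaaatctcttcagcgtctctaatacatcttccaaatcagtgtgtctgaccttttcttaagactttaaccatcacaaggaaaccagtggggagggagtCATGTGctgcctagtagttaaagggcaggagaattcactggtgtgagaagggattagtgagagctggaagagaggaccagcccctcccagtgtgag
S100a9, chr3:90695672-90695971, minus strand: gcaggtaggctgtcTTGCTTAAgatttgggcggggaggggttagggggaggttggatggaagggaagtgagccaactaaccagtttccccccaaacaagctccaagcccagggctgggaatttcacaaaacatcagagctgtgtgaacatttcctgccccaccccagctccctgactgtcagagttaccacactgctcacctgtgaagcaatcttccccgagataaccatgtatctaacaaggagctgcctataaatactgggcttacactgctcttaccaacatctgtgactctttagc
Ngp, chr9:110419558-110419857, plus strand: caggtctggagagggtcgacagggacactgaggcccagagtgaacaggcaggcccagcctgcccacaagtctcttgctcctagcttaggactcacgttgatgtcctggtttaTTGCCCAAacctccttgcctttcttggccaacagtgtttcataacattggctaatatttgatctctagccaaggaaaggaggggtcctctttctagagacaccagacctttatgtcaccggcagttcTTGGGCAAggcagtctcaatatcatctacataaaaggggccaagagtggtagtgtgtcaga
Hba-a1, chr11:32283422-32283721, plus strand: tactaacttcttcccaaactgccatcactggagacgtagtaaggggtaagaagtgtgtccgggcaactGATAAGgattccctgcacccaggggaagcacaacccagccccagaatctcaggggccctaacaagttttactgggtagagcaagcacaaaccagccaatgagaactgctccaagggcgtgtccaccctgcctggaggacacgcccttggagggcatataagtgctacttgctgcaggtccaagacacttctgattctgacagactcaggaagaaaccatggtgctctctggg
In Dct the matches begin at -232 and -150 relative to the start, in Tyrp1 at -46, in S100a9 at -236, in Ngp at -138 and -11, and in Hba-a1 at -182. Over the table's 27025 genes, a promoter of 300 bases held CATGTG in 15.9%, TTGCNNAA in 12.2% and GATAAG in 8.6%. CATGTG was found in 3 of 4 melanocyte genes with an entry, 2 of 8 primary granule genes, 3 of 18 neutrophil genes and 0 of 13 erythroid genes. TTGCNNAA was found in 2 of 4 melanocyte, 3 of 8 primary granule, 7 of 18 neutrophil and 1 of 13 erythroid genes. GATAAG was found in 1 of 4 melanocyte, 0 of 8 primary granule, 2 of 18 neutrophil and 6 of 13 erythroid genes.  These matches describe the letters only.

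Proteins of the primary granules, which promyelocytes make, marked marrow. Mpo, the myeloperoxidase that makes hypochlorous acid, had levels of 15.85 at the lowest, 15.89 at the median and 15.93 at the highest in the 9 marrow mice, against 4.64, 4.72, 4.64, 4.87 and 4.76 on the 5 reference arrays, none of which detected it. It was at least 877-fold higher in marrow. Elane, neutrophil elastase, ran from 15.30 to 15.71 in marrow against 5.05 to 5.87 in the reference and was at least 695-fold higher. Prtn3, proteinase 3, ran from 14.93 to 15.44 against 4.87 to 5.31 and was at least 556-fold higher. For none of the 3 genes did a marrow value overlap a reference value, and the spread between mice was small (SD 0.03, 0.13 and 0.19, n = 9). Of the 9 genes on the primary granule list 8 had passed the filter and all 8 were higher, with a median of 8.07 with the 7 undetected on all reference arrays at their bounds. On this list only Cst7, an inhibitor of granule proteases chosen for naming after its values were seen, was detected on all 5 reference arrays (difference 3.02).

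Genes of later neutrophils followed the same course. S100a9, a subunit of the calcium-binding protein calprotectin, had a lowest, median and highest level of 15.63, 15.73 and 15.80 in marrow. The reference arrays read 4.74, 4.68, 4.61, 4.92 and 4.66, and the gene was at least 785-fold higher in marrow. Ngp, the neutrophilic granule protein, ran from 15.87 to 15.97 in marrow against 4.80 to 5.08 and was at least 887-fold higher. Retnlg, a resistin-like secreted protein, ran from 15.31 to 15.88 against 4.61 to 4.77 and was at least 713-fold higher. None of these 3 genes was detected in the reference. Lyz2, the lysozyme of granulocytes and macrophages, was at least 851-fold higher, with a median of 15.86 against reference values from 4.74 to 5.03. The probe used may also read the near-identical Lyz1, and the 3 probes of Lyz2 that passed gave differences of 4.45 to 10.93. All 19 members that passed the filter, of 21 on the list, were higher in marrow, with a median of 7.32 with 14 of them at their bounds. Lcn2, Mmp9 and Padi4 were also detected on all 5 reference arrays, and of these Lcn2, a siderophore-binding protein that epithelia make too, had a mean of 15.94 in marrow against 11.99 in the reference (difference 3.95). These 3 genes were named after their values were seen. Levels near 16 are at the top of the scale in all 9 mice, so differences of the brightest genes may be compressed.

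Haemoglobin and red cell membrane genes made the second block. Hbb-bt, an adult beta globin, ran from 15.78 to 16.01 in marrow, median 15.94, against 5.13, 4.88, 5.17, 5.23 and 5.10 on the reference arrays. It was at least 899-fold higher by the probe used. Hbb-bt had 4 probes that passed the filter, with differences of 3.38 to 10.83. Hbb-bs, its near-identical neighbour, was at least 763-fold higher, and reads of the pair by these probes cannot be told apart with certainty. Hba-a1, alpha globin, was detected on all arrays, with a lowest, median and highest level of 15.81, 15.96 and 16.01 in marrow against 6.78, 6.85, 6.62, 6.60 and 6.73 in the reference, a difference of 9.24 ± 0.13 (SE). Slc4a1, the band 3 anion exchanger of the red cell membrane, ran from 13.76 to 14.64 in marrow against 4.65 to 5.11 and was at least 287-fold higher. Car1, a carbonic anhydrase of red cells, was at least 198-fold higher. Of 17 erythroid genes that passed the filter, of 22 listed, 16 were higher, with a list median of 5.30 with 13 members at their bounds. Tfrc, the transferrin receptor that dividing cells of many kinds carry, was the exception, with a difference of 0.00. The embryonic globins Hbb-y, Hbb-bh1 and Hba-x were detected on 0 of the 14 arrays.

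**Figure D3:**
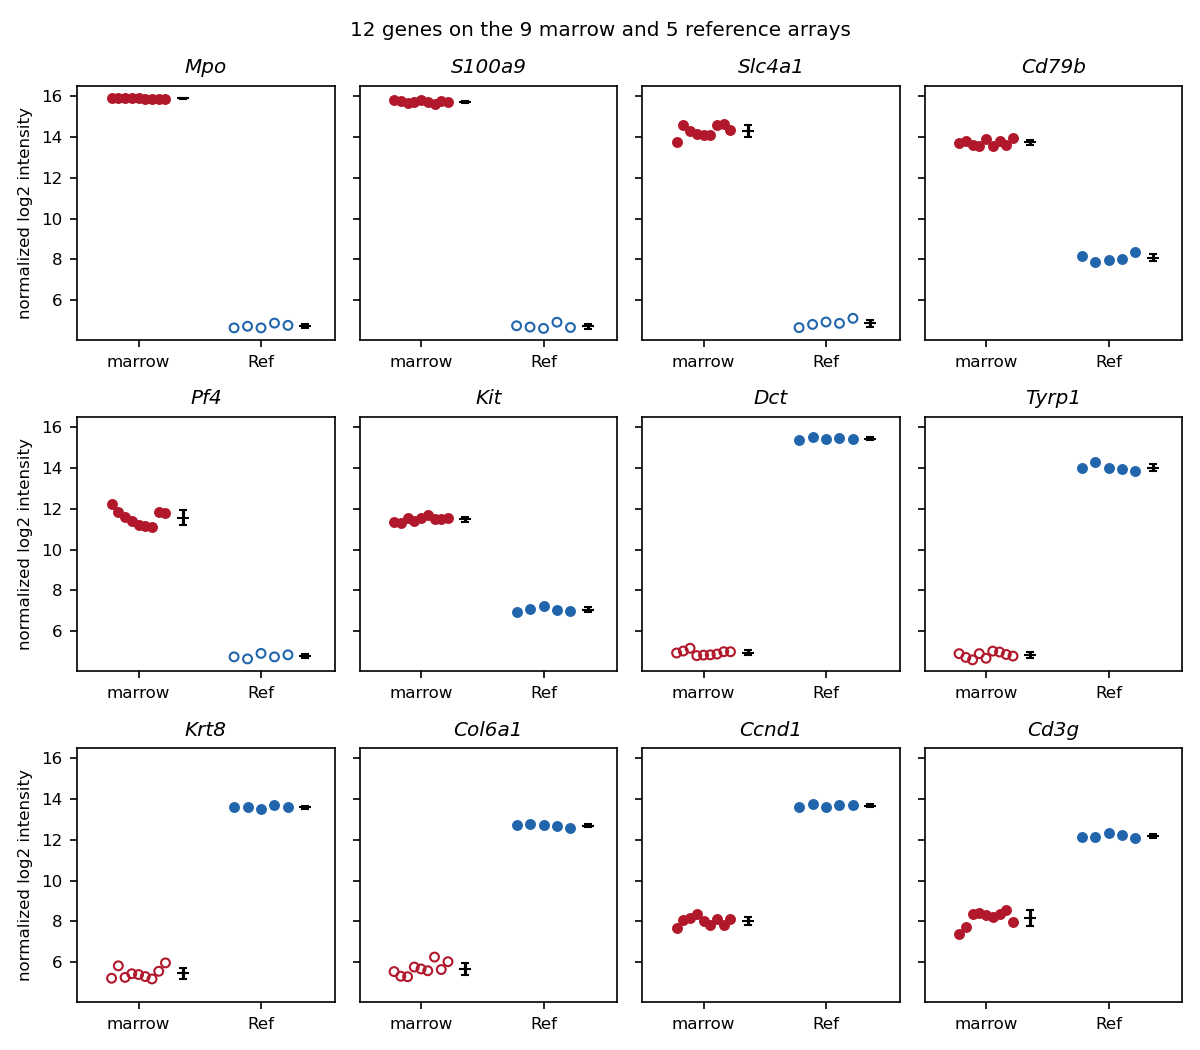
Normalized log2 intensity of 12 genes on each of the 9 marrow arrays (left, red) and 5 reference arrays (right, blue); open circles are arrays on which the probe was not detected, and the black mark beside each group is its mean with 1 SD. The 2 groups do not overlap in any of the 12 panels. Mpo, S100a9, Slc4a1 and Pf4 were detected in marrow alone, Dct, Tyrp1, Krt8 and Col6a1 in the reference alone, and Cd79b, Kit, Ccnd1 and Cd3g in both.

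B-lineage genes were higher in marrow as a group. Vpreb3, a component of the pre-B cell stage, had levels of 13.23, 13.76 and 13.99 (lowest, median, highest) in marrow against 4.77, 4.84, 4.96, 5.00 and 4.82 in the reference, at least 192-fold higher. Fcrla, an Fc receptor-like protein of B cells, was at least 170-fold higher. Igll1, a chain of the surrogate light chain of the pre-B cell receptor, was at least 87.4-fold higher but spread more between mice, from 11.61 to 13.69. Cd79b, which signals for the B cell receptor, was detected on all arrays, with 13.57 to 13.96 in marrow against 8.18, 7.89, 7.99, 8.01 and 8.37 in the reference (difference 5.64 ± 0.17 SE, limma adjusted p = 4.96e-11). All 14 members that passed the filter, of 18 listed, were higher, with a median of 3.68 with 10 of them at their bounds. Of the plasma cell list 3 of 6 genes that passed were higher, Mzb1, a chaperone for antibody secretion, by 6.99, Irf4 by a bound of 36.2-fold and Pou2af1 by 4.16. Sdc1, a syndecan of plasma cells and of epithelia, was lower, with 1 of 9 marrow arrays and 5 of 5 reference arrays detected (difference -2.87).

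Antigen presentation and phagocyte genes were higher in marrow too. Cd74, the invariant chain that guides MHC class II molecules, ran from 12.89 to 14.08 in marrow against 5.12 to 5.77. It was at least 203-fold higher by the probe used. The 3 probes of Cd74 that passed the filter gave differences of 4.50 to 8.28, and a probe other than the one used was detected on 1 of 5 reference arrays. H2-Eb1 and H2-Ab1, class II chains, were at least 45.1-fold and 39.0-fold higher by the probes used. The 3 probes of H2-Ab1 that passed gave differences of 0.28 to 5.76. Of the 8 class II genes 7 were called higher (median 3.26, 6 at their bounds). Among monocyte genes, 8 of 9 that passed were higher (median 3.18, 6 at their bounds), led by F13a1, the A subunit of coagulation factor XIII, at least 96.6-fold, and Ly86, a partner of a Toll-like receptor relative, at least 29.0-fold. Of 15 resident macrophage genes 13 were higher, among them the complement chains C1qb (at least 21.9-fold) and C1qc (at least 22.5-fold) and the mannose receptor Mrc1 (at least 18.5-fold). Axl, a receptor kinase that clears dying cells and that many stromal and tumor cells carry, went the other way, with 11.51, 11.74 and 12.09 in marrow against 13.87, 13.96, 14.10, 14.10 and 14.02 in the reference (difference -2.25 ± 0.19 SE). Of the dendritic cell list 5 genes passed and 4 were higher, with Klrd1 at least 8.10-fold higher and Siglech at a difference of 3.97.

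The rarer granulocytes and platelets showed the same direction. Prg2, the major basic protein of eosinophils, ran from 14.50 to 15.85 in marrow against 4.69 to 4.87 and was at least 650-fold higher. Hdc, which makes histamine, and Prss34, a basophil protease, were at least 260-fold and 181-fold higher, and all 9 genes that passed of the eosinophil, basophil and mast cell list were higher (median 4.74, 8 at their bounds). Pf4, platelet factor 4, had 11.09, 11.60 and 12.23 in marrow against 4.74, 4.64, 4.91, 4.74 and 4.84 in the reference, at least 43.9-fold higher. All 10 megakaryocyte genes that passed were higher (median 3.67, 9 at their bounds), among them Ppbp, a platelet chemokine, at least 46.1-fold and Treml1, a receptor of platelet granules, at least 23.5-fold.

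Pan-leukocyte genes, blood transcription factors and progenitor genes were mostly higher in marrow, and some were detected in the reference as well. All 14 pan-leukocyte genes that passed were higher, with a median of 3.16. On all 5 reference arrays 10 of them were detected, as were 8918 of all 10956 genes tested. Ncf1, a subunit of the phagocyte oxidase, was at least 33.3-fold higher and undetected in the reference by the probe used. The 2 probes of Ncf1 that passed gave differences of 1.72 to 6.51. Ncf4, another subunit, had 13.90 to 14.28 in marrow against 8.43, 8.60, 8.61, 8.69 and 8.50 in the reference (difference 5.52). Of 14 haematopoietic transcription factors that passed 13 were higher, and 9 of the 14 were undetected on all 5 reference arrays. Nfe2, of megakaryocytes and erythroid cells, and Cebpe, of late granulocyte precursors, were at least 165-fold and 109-fold higher. Runx1 did not pass the test, at a mean of 7.46 in marrow against 7.27 in the reference (difference 0.19). Kit, the stem cell factor receptor, had 11.32, 11.52 and 11.68 in marrow against 6.93, 7.09, 7.22, 7.03 and 7.00 (difference 4.43 ± 0.16 SE). The 2 probes of Kit that passed gave differences of 2.06 to 4.43. Of 11 stem and progenitor genes that passed 6 were higher and 1, Procr, was lower, with its probe detected on 0 of 9 marrow and 5 of 5 reference arrays.

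Among genes detected on all 14 arrays, the largest differences towards marrow besides Hba-a1 and Cd79b were those of Lilr4b, an inhibitory receptor of myeloid cells (6.88), Osm, the cytokine oncostatin M (6.79), Klf2, a transcription factor of resting lymphocytes and endothelium (6.33), Sema4a (5.83), Myl4, a myosin light chain (5.81), and Ly6c1, a surface antigen of monocytes and endothelium (5.67). Osm ran from 13.39 to 14.33 in marrow against 7.27, 7.08, 7.16, 7.27 and 7.16 in the reference. Klf2 ran from 14.19 to 15.22 against 8.17 to 8.46. For all 6 genes every marrow value lay above every reference value.

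T-cell genes did not follow the other blood lists. Cd3g, a chain of the T-cell receptor complex, had levels of 7.40, 8.34 and 8.54 in marrow against 12.15, 12.13, 12.33, 12.23 and 12.10 in the reference, a difference of -4.03 ± 0.35 (SE, limma adjusted p = 7.34e-07). Cd3e, its partner chain, had 6.88, 7.70 and 8.22 in marrow against 11.19, 11.23, 11.25, 11.18 and 11.18 (difference -3.54 ± 0.39). Zap70, the kinase that docks to these chains, differed by -2.54, while Cd3d, a further chain, was higher in marrow by 0.74. Nkg7, a granule protein of killer cells and of some myeloid cells, was detected on all marrow arrays and 0 of 5 reference arrays and was at least 120-fold higher. Of 10 T and NK cell genes that passed 2 were higher and 4 were lower, near the shares over all genes tested (24.9% higher, 33.9% lower). The other 6 of 16 with a probe were detected on no array. The fourth lower gene was Cd4, which was detected on 0 of 9 marrow and 1 of 5 reference arrays. Zap70, Cd3d and Cd4 were named after their values were seen. Of 4 thymocyte genes that passed, Satb1, a chromatin organiser, was 5.61 higher and Lef1 was 1.70 higher in marrow. Bcl11b, a T-lineage factor, was lower in marrow (difference -2.02). The 2 probes of Satb1 that passed gave differences of 1.82 to 5.61. In the other 38 mice Cd3g did not exceed 8.76, below every reference array.

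**Figure D4:**
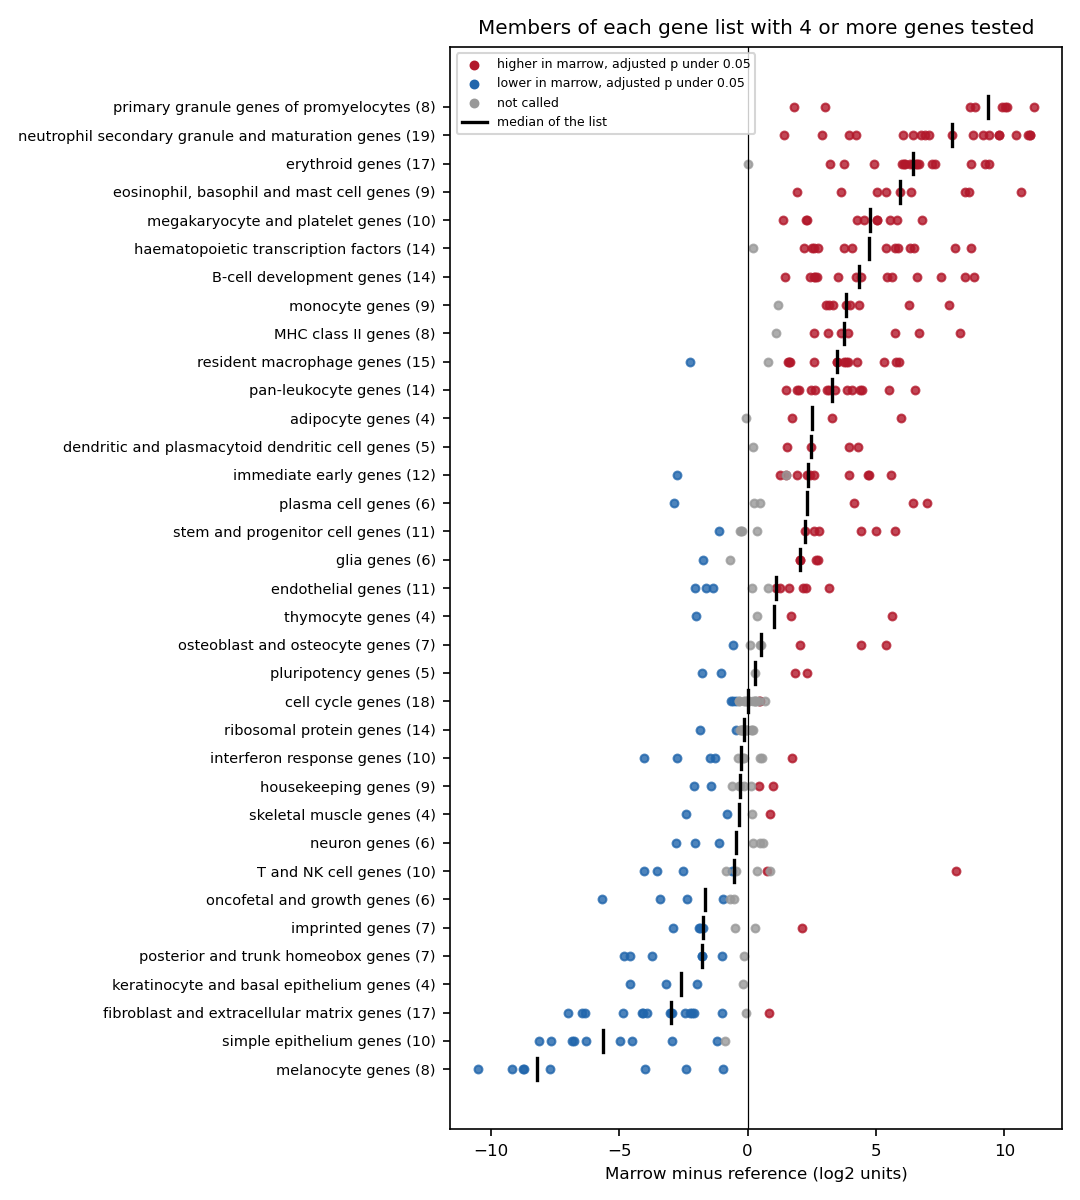
Difference of marrow minus reference (log2 units) for every tested member of the 35 gene lists with 4 or more tested genes, 1 point per gene, with the number tested in brackets and the list median as a black bar. Genes undetected in a group are drawn at their measured difference, not at their bound. Primary granule genes stand at the top with a measured median of 9.38, and melanocyte genes at the bottom with one of -8.22.

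The reference RNA was marked by pigment cell genes. Dct, dopachrome tautomerase of the melanin pathway, had 4.80, 4.93 and 5.16 in marrow against 15.37, 15.53, 15.40, 15.45 and 15.44 in the reference. It was at least 596-fold lower in marrow. Tyrp1, a related melanosomal enzyme, had 4.59, 4.86 and 5.02 in marrow against 14.01, 14.27, 13.99, 13.97 and 13.87, at least 223-fold lower. Pmel, the fibril protein of melanosomes, was at least 260-fold lower in marrow, with reference values between 14.21 and 14.27. Mlana, a melanosome protein, was at least 189-fold lower, with reference values between 13.65 and 13.93. None of these 4 genes was detected in any of the 9 marrow mice or in the other 38 mice of the series. All 8 melanocyte genes were lower in marrow, with a median of -6.92 with the 7 undetected on all 9 marrow arrays at their bounds. Mitf, the regulator of this program, was detected on 0 of 9 marrow and 1 of 5 reference arrays, and no bound above 1 could be set for it. Gpnmb, a glycoprotein of melanosomes and of some macrophages, was at least 520-fold lower in marrow, with 15.32, 15.23, 15.26, 15.21 and 15.20 in the reference. The 4 probes of Gpnmb that passed gave differences of -10.31 to -3.43.

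Epithelial genes were the second mark of the reference. Krt8, a keratin of simple epithelia, had 5.18, 5.39 and 5.96 in marrow against 13.62, 13.59, 13.50, 13.71 and 13.59 in the reference, at least 167-fold lower in marrow. The keratin Krt7 and the tight junction protein Cldn4 were at least 89.0-fold and 83.8-fold lower. Wfdc2, a secreted protease inhibitor of epithelia, was at least 465-fold lower, with reference values between 15.02 and 15.12. Of 10 simple epithelium genes that passed, of 11 listed, 9 were lower in marrow, and 8 were undetected on all 9 marrow arrays, with a list median of -4.20 with these 8 at their bounds. Epcam, a defining surface protein of epithelia, was not detected on any of the 14 arrays. Of the keratinocyte list 4 of 9 genes passed and 3 were lower in marrow, Krt14 by at least 9.90-fold, Sfn by at least 3.91-fold and Trp63 by at least 1.41-fold. Erbb2, the receptor kinase whose rat form is the transgene of the NeuT+ mice, was detected on 0 of 9 marrow and 5 of 5 reference arrays, at least 7.02-fold lower in marrow. Csn3, kappa casein, was detected on 0 of 9 and 5 of 5 arrays, at least 1.17-fold lower. Of the 9 genes with a probe on the mammary list 6 were detected nowhere. Of all 19053 genes with a probe, 10956 were detected on at least 1 of the 14 arrays.

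Matrix and fibroblast genes were lower in marrow. Col6a1, a chain of type VI collagen, had 5.28, 5.64 and 6.25 in marrow against 12.73, 12.76, 12.71, 12.67 and 12.58 in the reference. It was at least 88.5-fold lower by the probe used, and its 3 probes that passed gave differences of -7.02 to -1.01. Lox, which crosslinks collagen, and Pdgfra, a growth factor receptor of fibroblasts, were at least 49.0-fold and 31.2-fold lower. Serpinh1, the collagen chaperone, was detected on all arrays with 7.73, 7.84 and 8.20 in marrow against 14.47, 14.67, 14.47, 14.44 and 14.50 (difference -6.60 ± 0.19 SE, limma adjusted p = 2.46e-11), and Bgn, the proteoglycan biglycan, differed by -5.83. Of 17 fibroblast and matrix genes that passed, of 19 listed, 15 were lower in marrow, with a median of -2.96 with 8 members at their bounds. Cxcl12, the chemokine by which marrow stroma holds stem cells, did not pass the test (difference -0.06). Lum, a small proteoglycan, was called higher in marrow with a detected signal in mouse 9 alone and on 0 of 5 reference arrays, so that no fold is given.

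Further genes detected on all 14 arrays with large differences towards the reference were Slc39a4, a zinc importer (-6.15), Pcbp4, an RNA-binding protein (-5.79), Psg23, a pregnancy-specific glycoprotein (-5.66), Ccnd1, cyclin D1 of the G1 phase (-5.66), Errfi1, an inhibitor of the EGF receptor (-5.45), and Fkbp9, a folding enzyme of the secretory pathway (-5.42). Ccnd1 had 7.68, 8.07 and 8.37 in marrow against 13.59, 13.77, 13.62, 13.69 and 13.69 in the reference. Psg23 belongs to a family of near-identical genes, so its value is uncertain as to the member. Cxcl1, a neutrophil-attracting chemokine that stromal and epithelial cells release, was at least 113-fold lower in marrow.

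Of the genes of embryonic patterning, growth and imprinting that passed the filter, some were lower in marrow, some passed no test and Grb10 was higher. Hoxa5 had 6.24, 6.73 and 7.19 in marrow against 11.75, 11.58, 11.52, 11.56 and 11.61 (difference -4.83), Hoxc6 was at least 10.2-fold and Hoxd8 at least 4.94-fold lower, and 6 of 7 homeobox genes that passed were lower, with a list median of -0.49 with 6 members at their bounds. Of 6 oncofetal and growth genes that passed 4 were lower: Ccnd1, the RNA-binding proteins Igf2bp1 (at least 3.69-fold) and Igf2bp3 (-2.36), and Hmga2. Of 7 imprinted genes that passed 4 were lower, among them Ndn (at least 4.21-fold) and Dlk1 (at least 2.31-fold), and Grb10 was higher by 2.13. Beside these counts, 33.9% of all genes tested were lower and 24.9% higher.

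Many defining genes of adult organs were not detected in either RNA. Of all 19053 genes with a probe, 10956 were detected on at least 1 of the 14 arrays, so undetected genes are common at large. Of 16 hepatocyte genes 13 were detected on none of the 14 arrays, as were 8 of 10 kidney, 8 of 9 intestine, 5 of 6 pancreas, 6 of 7 lung, 8 of 12 skeletal muscle, 6 of 8 heart and 10 of 11 germ cell genes with a probe. What remained of these lists was a few genes. Lgr5, a receptor of intestinal stem cells, was at least 4.15-fold higher in marrow, and Prm1, a protamine of sperm, at least 2.58-fold higher. Apoa2, an apolipoprotein, was detected on 0 of 9 marrow and 5 of 5 reference arrays, at least 1.18-fold lower. The heart list held Nppb, a natriuretic peptide, at least 9.43-fold lower in marrow, and Myl2, at least 1.68-fold higher. Of the neuron list 9 of 15 genes were undetected everywhere and 3 of 6 that passed were lower in marrow (Gap43, Map2 and Stmn2). Over all genes tested 33.9% were lower and 24.9% higher. The glia list had 4 higher (Mag, Cnp, Mbp and Slc1a3) and 1 lower (Aldh1l1) of 6 that passed, and the pluripotency list 2 higher (Lin28a and Dnmt3l) and 2 lower (Sall4 and Dppa5a) of 5. Mbp is uncertain, since the mean of its probes gave a difference of -1.73 against 2.05 for the probe used. The kidney genes Slc12a1 and Slc12a3, the pancreas gene Cela1, the lung gene Ager and the smooth muscle gene Acta2 passed no test. Smtn differed by -2.33. Slc12a3 and Acta2 are uncertain as well. The means of their probes gave 2.84 and -0.54, against -0.23 and 0.44 for the probes used. Trf, of the fetal liver list, and Insl3, of the gonadal list, had differences of -0.08 and -0.02, and Inha and Dlk1 of the same lists were lower.

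Bone and vessel genes were split, and the fat genes that passed were higher in marrow or not called. Bglap, osteocalcin, was at least 17.6-fold higher in marrow, with 9.84, 10.15 and 11.02 in the 9 mice, and Bglap2, a near-identical gene whose probe may read Bglap as well, was higher by 4.43. Of 7 osteoblast genes that passed 3 were higher and 1, Phex, was lower. The lone osteoclast gene that passed, Ctsk, was lower (-1.33). Of 11 endothelial genes 6 were higher in marrow, led by Esam (at least 5.54-fold), Pecam1 (2.28) and Tie1 (at least 1.85-fold), and 3 were lower, Eng, Flt1 and Plvap (Eng -2.06). Of 8 adipocyte genes with a probe 4 passed, and the other 4 were detected on no array. Among those that passed 3 were higher: Lpl, lipoprotein lipase, at least 24.4-fold, Pparg at least 3.68-fold and Adipoq at least 1.53-fold. In RNA of whole tissue, fewer cells of a type and less RNA per cell cannot be told apart.

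Cell cycle genes were close in level between the 2 RNAs. Of 18 that passed, 2 were higher (Mcm5 and Tyms), 3 were lower (Cdk1, E2f1 and Aurka) and 13 passed no test, with a median difference of 0.03. Cdk1, the kinase that starts mitosis, had 11.78, 11.97 and 12.21 in marrow against 12.57, 12.59, 12.59, 12.67 and 12.70 (difference -0.65 ± 0.16 SE), and Mcm5, of the replicative helicase, differed by 0.47. Of 14 ribosomal protein genes that passed 12 passed no test (median -0.15), and Rplp0 (difference -1.87) and Rpl4 (-0.44) were lower in marrow. Of 9 housekeeping genes Gapdh (-1.42) and Pgk1 (-2.10), both enzymes of glycolysis, were lower, and Actb (1.00) and Tbp (0.46) were higher; the 5 probes of Actb disagreed, with 3 of 5 of the same sign.

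Stimulus-induced genes differed in both directions. Of 12 immediate early genes that passed 10 were higher in marrow, with a median of 2.37. Fosb had 12.39, 13.12 and 13.77 in marrow against 7.43, 7.64, 7.29, 7.49 and 7.47 in the reference (difference 5.57 ± 0.39 SE), Fos differed by 4.73 and Zfp36, which destabilises cytokine messages, by 4.68. Ier3 was lower (difference -2.75). Of 10 interferon response genes that passed, 4 were lower, 1 was higher and 5 were not called. The shares over all genes tested were 33.9% lower and 24.9% higher. Ifit3 was lower, with 7.78, 8.20 and 9.26 in marrow against 12.40, 12.43, 12.44, 12.44 and 12.38 (difference -4.04), as was Bst2 (-2.75). Oas3 was higher by 1.74.

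The 9 mice spread more than the 5 reference arrays. The median SD per gene was 0.219 among mice and 0.102 among reference arrays, and 88.5% of genes had the larger SD among mice. The genes detected on all 9 mice with the largest SD were Apol11b (1.14), the heat shock gene Hspa1a (1.11, near-identical to Hspa1b), Zc3h13 (1.10), the mitochondrial ND4L (1.07), Prg3, an eosinophil granule protein (1.05), and Slamf7, a receptor of plasma and killer cells (0.97). Prg3 had 9.50 to 9.96 in marrow mice 3, 4 and 5, whose animal numbers begin with 12, and 11.44 to 12.25 in the other 6. ND4L was the sole gene of these 6 that did not pass the test against the reference, with 6.64 to 9.81 in marrow against 8.93 to 9.99. The labels do not say what the leading digits of an animal number stand for. Of the list means, that of the megakaryocyte genes had an SD of 0.55 among mice, that of the interferon genes 0.34, and those of the monocyte and MHC class II genes 0.29 each. Marrow mouse 6 had the lowest megakaryocyte mean, 8.43, where the other 8 mice had 9.33 to 10.29 and the reference arrays 5.26 to 5.38.

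**Figure D5:**
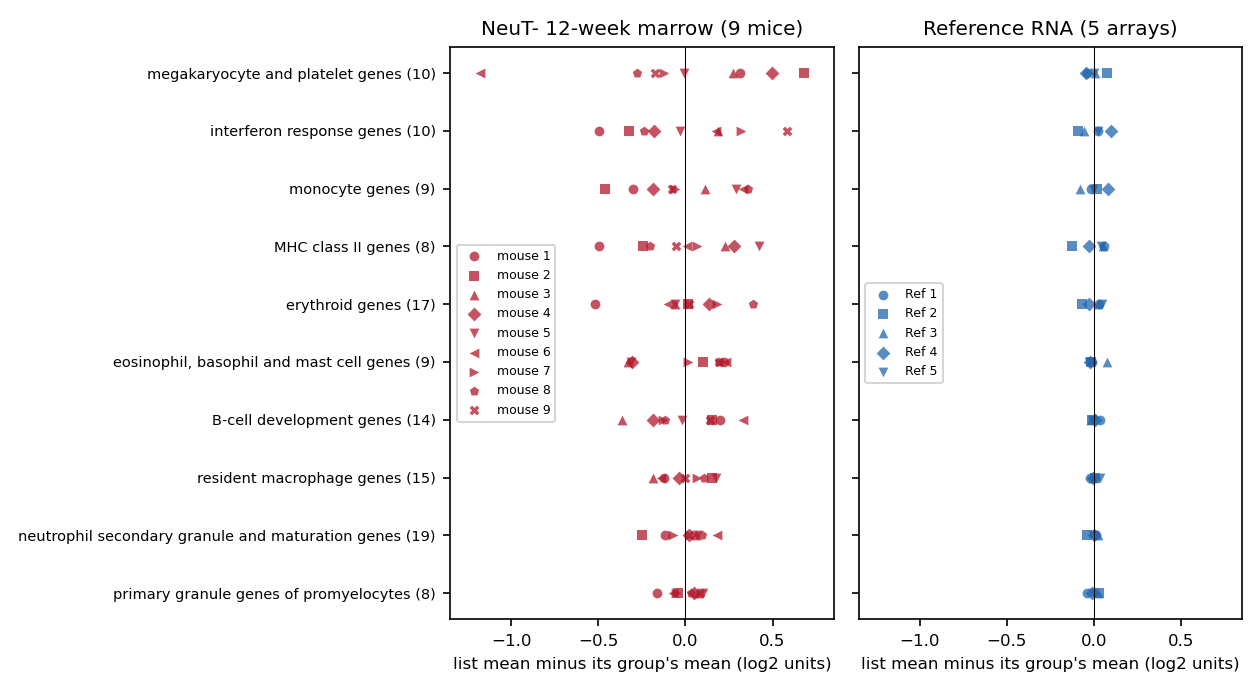
Mean level of 10 gene lists in each of the 9 marrow mice (left) and on each of the 5 reference arrays (right), as the deviation from the mean of its group (log2 units), 1 marker shape per array. The megakaryocyte list spreads most among mice, with mouse 6 lowest, and all reference arrays lie close to 0.

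The other 38 mice of the series gave the same picture for most of the called genes. Of the 2730 genes that were higher in the 9 marrow mice, 2094 (76.7%) had all 38 other mice above all 5 reference arrays, against 20.1% of all genes tested. Of the 3718 lower genes 3232 (86.9%) had all 38 below, against 30.8% of all genes tested. These comparisons share the reference arrays. Col6a1, Krt7 and Cxcl1, undetected in the 9 marrow mice, were detected in 16, 9 and 10 of the 38, at levels up to 7.99, 6.78 and 7.70. Slc4a1 ranged from 9.68 to 14.85 and Bglap from 4.85 to 12.50 in the 38 mice, against 13.76 to 14.64 and 9.84 to 11.02 in the 9.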

How the data were processed

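The 47 mouse marrow RNAs and 5 Ref arrays were run on the Illumina mouseWG-6 v2.0 platform. The deposited raw table gives linear intensities as exported by BeadStudio 3.3.8, per the series' design text, with a detection p-value beside each deposited intensity. The authors' deposited log2 values were spline-normalized with lumi (version not given in the sources used here), per the series' design text, and served as an alternative.

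The neqc function of limma 3.58.1 (R 4.3.3) corrected the background of the raw intensities and quantile-normalized all 52 arrays together, with an offset of 16. A probe entered if any of the 14 arrays detected it at a p-value under 0.01, which left 20617 probes, 17483 of them with 1 symbol. Of 45281 probes, the platform annotation gives 34885 a single symbol, 18 several and 10378 none; 34807 matched a RefSeq table (GRCm38.p6, used for names) by Entrez number and 11 by accession. The probe with the highest mean of the 2 group means stood for its gene.

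Genes were tested with lmFit and eBayes, the 5 Ref arrays averaged to 1 sample, with Benjamini-Hochberg adjustment over 10956 genes. SE is that of the moderated fit. The number of arrays limits the precision. A bound sets the bright group's mean against, for each dim array, whichever is higher of the probe's signal there and the faintest detected signal of that array; no fold is given where this is under 1. All members and lists were chosen with earlier results of these data known. Named are the 8 largest differences or bounds in each direction of each detection class, the 3 largest of each list with the largest in its minority direction, all sex-linked genes, and the 6 largest SDs among mice; other names are stated. The method was tested on simulated data with the spreads of the mice and Ref arrays. It called 55 of 100 genes shifted by 1 log2 unit, 91 of 100 shifted by 2 and 12 of 10756 unshifted genes. A gene that passed no test may therefore still differ. Alternatives covered normalization, filter, probe choice, Ref arrays as separate samples, all mouse groups, number series, and each array left out. Chosen after seeing the data were the split by raw median and the values of the other 38 mice.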

Additional observations from a re-analysis of the deposited data

Results flagged for a closer look

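Among 232 sets of values (a named gene's levels in the 9 marrow mice or on the 5 reference arrays) 15 held a highest or lowest value far from the others by Dixon's criterion, 12 in marrow and 3 in the reference; chance gives about 1 in 20. Marrow mouse 6 had 5 of them: the platelet genes Ppbp (10.22, next 11.34) and Treml1 (8.95, next 10.31) and the folding enzyme Fkbp9 (6.60, next 7.31) were lowest there, and Lef1 (8.18, next 7.09) and Esr1 (6.50, next 5.82) highest. Marrow mouse 9 had the lowest Xist (4.72, next 9.36) and the highest Lum (6.29, next 5.69) and Sdc1 (6.82, next 6.03). Marrow mouse 1 had the lowest C1qc (10.04, next 10.48) and H2-Eb1 (10.85, next 11.50). Hba-a1 was lowest in marrow mouse 8 (15.81, next 15.94) and Psg23 in marrow mouse 2 (7.85, next 8.23). In the reference, Actb was highest on array 4 (14.78, next 14.66), Serpinh1 highest on array 2 (14.67, next 14.50) and Psg23 lowest on array 3 (13.89, next 14.04). Xist, Ppbp and Treml1 were undetected on all 5 reference arrays, and all 3 were called higher in marrow with and without the mouse in question (Xist limma adjusted p = 0.032 with mouse 9 and 0.00011 without it).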

How the results depend on the processing

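Of 28 alternatives, none moved a count of called genes by 1.5 times. The median SD was 0.163 among mice and 0.0814 among reference arrays in the deposited log2 values. Genes called higher numbered 2361 to 3936 and lower 3052 to 4942, the fewest with normexp and median scaling and the most with the 5 reference arrays as separate samples, where the spread between them, which may be technical, counts as replication. Each alternative kept at least 82.8% of the called genes, and the share of higher calls ran from 40.7% to 44.3%. In number series 11, 12 and 15 alone 5748, 7149 and 6288 genes were called, and on arrays with a raw median above 140 or below 130, 5951 and 6494. With the mean of all probes of a gene the differences of Acta2 (-0.54), Mbp (-1.73) and Slc12a3 (2.84) reversed, since their probes disagree. Of 150 named genes that were called, 133 stayed called throughout; the calls of Phex and Rpl4 were lost in 9 alternatives each, of Ibsp in 5, and of E2f1, Mcm5 and Xist in 3 each (Xist limma adjusted p between 3.0e-05 and 0.139). No paired analysis was possible because the mouse numbers are in accession order and pair with no reference array. Signals under detection set only bounds. The origin of the reference RNA and the labelling kit are not stated with certainty in the sources used here.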
